A study of Homo sapiens with 12 samples.

Results

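The AP-1 transcription factor family was followed in MCF10A cells over a time course of TAZ-4SA induction. The members were taken by symbol, namely FOS, FOSB, FOSL1, FOSL2, JUN, JUNB, JUND, ATF3, MAFF and MAFK, each matched to its Ensembl gene identifier without the version. All 10 members were found among the 60483 genes of the deposited tables, and all 10 passed the filter on low counts that left 14822 genes for testing. MCF10A is an immortalised human mammary epithelial cell line, and every library came from these cells carrying TAZ-4SA under the control of doxycycline (Dox). TAZ, the product of WWTR1, is a transcriptional co-activator held back by the Hippo pathway, and the 4SA form carries serine-to-alanine changes that free it from that control. The groups were No Dox (no induction) and Dox for 24, 48 and 72 h at 0.05 µg/ml, with 3 RNA-seq libraries each. All groups carried the construct, so cells without it, or treated with Dox in its absence, were not analysed here, and neither were No Dox cells kept for the later times. TAZ-4SA, Dox itself and time in culture therefore cannot be told apart.

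AP-1 is a dimer of basic leucine zipper (bZIP) proteins that binds DNA and controls genes of growth, migration and stress. A FOS-group protein (FOS, FOSB, FOSL1 or FOSL2) needs a partner, usually of the JUN group (JUN, JUNB or JUND), whereas JUN proteins can also pair with each other. FOS, FOSB, JUN and JUNB belong to the immediate-early genes, which growth factors and serum switch on within minutes and for a short time. FOSL1 and FOSL2 lack the strong activating region of FOS and persist longer after a stimulus, and FOSL1 is often high in invasive and mesenchymal cells. ATF3 is a stress-induced relative that can pair with JUN proteins and often represses, and MAFF and MAFK are small MAF proteins that lack an activating region and pair with other bZIP factors. TAZ reaches DNA through TEAD factors, whose sites often lie close to AP-1 sites in enhancers.

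The libraries held 15382564 to 26570132 expected counts and 17873 to 19432 genes with at least 1 count. WWTR1 averaged 887 ± 68.1, 844 ± 73.6 and 994 ± 59.3 CPM (counts after every library is scaled to the same total) at 24, 48 and 72 h in Dox, against 71.7 ± 2.88 CPM in No Dox cells (SD, n = 3 each). All 8 epithelial markers had a mean of at least 1 CPM in every group, summing to 9180 to 11400 CPM in Dox libraries and 8540 to 9160 CPM in No Dox libraries. Single markers moved in both directions behind this sum. At 72 h KRT8 and KRT18 averaged 2230 and 1920 CPM, against 211 and 368 CPM in No Dox cells. KRT5 and KRT17 averaged 1650 and 600 CPM at 72 h, against 3520 and 2370 CPM. Marker sums of other cell types were low and moved with Dox. The 7 fibroblast markers summed to 1.91 to 4.9 CPM in Dox libraries and 54.5 to 56.4 CPM in No Dox libraries, with COL1A2, COL3A1 and PDGFRA at 0 counts throughout. The 6 leukocyte markers summed to 5.45 to 8.71 CPM in Dox libraries and 25.7 to 30.8 CPM in No Dox libraries, with CD3E at 0 counts throughout. The 4 endothelial markers summed to 0.121 to 12.5 CPM in Dox libraries and 33.5 to 34.8 CPM in No Dox libraries. Most of each of these 3 No Dox sums came from 1 gene, namely DCN (mean 50.1 CPM), CD14 (21.1 CPM) and KDR (27.6 CPM). Counts of the mitochondrial ribosomal RNAs made up 0.169 to 0.244% of Dox libraries and 0.786 to 0.829% of No Dox libraries. The part of these differences in the values of the AP-1 members was not tested. The labels do not say whether the replicates were separate cultures, and if they were not, p-values measure a spread that could be technical. In bulk RNA, a change in the share of cells expressing a gene and a change in the RNA per cell cannot be told apart.

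The stretches before the start sites were read first, because several AP-1 genes are known to be controlled through cAMP response elements (CREs), which ATF and CREB proteins and JUN-ATF dimers bind. RefSeq (GRCh38.p14) promoter entries covered 8 of the 10 members, with 10 start sites, and the 250 bases before each start were searched on both strands. The CRE core TGACGT was found in 5 of the 10 windows (FOS, FOSB, FOSL2, JUND and 1 of MAFF) and the CRE-type site TGACNTCA in 4 (JUN, JUND, 1 of ATF3 and 1 of MAFF). In JUND and MAFF the 2 kinds of match overlap. The MAFF matches lie in an annotated exon of a protein-coding gene, whereas those of the other members do not. Over all 35116 windows of the same length, 7.1% held TGACGT and 6.87% held TGACNTCA. The AP-1 site TGANTCA (6.57% of all windows), the TEAD site GGAATG (11.9%) and the CArG box (1.16%) were in none of the 10 windows of members. Such matches describe letters and not binding, and the search covered these windows only.

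The core began 64 bases before the start of FOS, 60 before that of FOSB and 66 before that of FOSL2, and the CRE-type site began 67 bases before the start of JUN and 123 before that of the upstream ATF3 start. The stretches of FOS, FOSB, FOSL2 and JUN are shown because their matches lie at nearly the same distance while their courses in Dox, described next, differed, and that of ATF3 because it is the member called higher at 48 and 72 h. Each is printed 5′ to 3′ on the gene's own strand, with the match in capitals, and is the longest stretch of its window without an annotated exon. They are chr14:75278578-75278825 for FOS (plus strand), chr19:45467746-45467994 for FOSB (plus), chr2:28392608-28392801 for FOSL2 (plus), chr1:58784049-58784297 for JUN (minus) and chr1:212565157-212565333 for ATF3 (plus). The FOSL2 stretch lies within the annotated span of the gene, in an intron of a transcript that starts earlier, and the others lie just before their genes.
FOS: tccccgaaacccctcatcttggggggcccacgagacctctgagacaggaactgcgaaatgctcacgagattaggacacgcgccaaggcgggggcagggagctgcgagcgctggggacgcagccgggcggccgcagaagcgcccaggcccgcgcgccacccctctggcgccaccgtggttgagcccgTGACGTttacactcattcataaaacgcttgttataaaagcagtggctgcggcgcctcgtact
FOSB: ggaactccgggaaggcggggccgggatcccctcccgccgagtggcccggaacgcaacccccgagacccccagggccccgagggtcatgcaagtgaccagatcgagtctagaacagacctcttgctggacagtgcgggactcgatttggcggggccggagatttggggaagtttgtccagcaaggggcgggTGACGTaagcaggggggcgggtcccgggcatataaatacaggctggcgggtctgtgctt
FOSL2: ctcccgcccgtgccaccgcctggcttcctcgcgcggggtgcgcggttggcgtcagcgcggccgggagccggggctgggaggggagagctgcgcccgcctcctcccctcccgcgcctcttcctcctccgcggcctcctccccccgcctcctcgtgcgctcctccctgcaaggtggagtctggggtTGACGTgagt
JUN: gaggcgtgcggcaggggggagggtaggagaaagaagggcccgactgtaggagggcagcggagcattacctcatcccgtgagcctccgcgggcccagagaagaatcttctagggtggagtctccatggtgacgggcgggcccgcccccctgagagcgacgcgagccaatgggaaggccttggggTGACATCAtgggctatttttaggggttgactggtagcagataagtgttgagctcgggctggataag
ATF3: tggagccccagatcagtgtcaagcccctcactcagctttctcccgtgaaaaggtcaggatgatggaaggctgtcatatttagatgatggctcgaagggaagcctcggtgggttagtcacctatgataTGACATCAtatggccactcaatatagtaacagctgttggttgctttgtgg

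FOS fell the most of the family and came back in part. FOS (ENSG00000170345, chr14:75278826-75282230, plus strand, GRCh38) is read here in CPM with TMM-scaled library sizes, and its values were 93.6, 95.4 and 97.9 in the No Dox libraries, 1.12, 1.62 and 1.21 at 24 h, 3.83, 4.96 and 3.05 at 48 h and 7.19, 7.64 and 7.21 at 72 h. All Dox libraries lay far below all No Dox libraries, and each later time lay above the one before it without overlap. FOS was 72.1-fold lower at 24 h than in No Dox cells (log2 fold change -6.17, SE 0.12, adjusted p = 2.56e-20). The size of this fall rests on few counts, 24, 33 and 20 in the 24 h libraries. With effective lengths in the edgeR fit the log2 fold change was -5.95. The p-values of fold changes come from edgeR's quasi-likelihood test over all 12 libraries with Benjamini-Hochberg adjustment over all genes tested, and a gene is called where the adjusted p is under 0.05 and the log2 fold change is at least 1 in size. The difference narrowed to 23.6-fold at 48 h and 13.1-fold at 72 h, both called. Within Dox, FOS was 5.52-fold higher at 72 h than at 24 h (log2 fold change 2.47, SE 0.17, adjusted p = 7.21e-11).

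FOSB (ENSG00000125740, chr19:45467995-45475179, plus strand), a close relative of FOS, was the least abundant member. It had 26, 21 and 21 counts in the No Dox libraries, 5, 13 and 9 at 24 h, 4, 16 and 3 at 48 h and 2, 6 and 9 at 72 h. The No Dox libraries were all above the Dox libraries, and the 3 Dox groups overlapped one another. FOSB was called lower at each time, with log2 fold changes of -1.33 (SE 0.47, adjusted p = 0.0142) at 24 h, -1.6 at 48 h and -2.1 at 72 h. These calls did not stand on a scale per length. The effective length, the mean number of positions at which a fragment of the gene's transcripts could start, averaged 1423 ± 121, 1825 ± 1390 and 1420 ± 374 nt at 24, 48 and 72 h, against 3301 ± 129 nt in No Dox cells. In TPM, which counts transcripts by dividing reads by that length, FOSB ranged over 0.19 to 0.63 TPM at 24 h, 0.07 to 0.65 TPM at 48 h and 0.07 to 0.49 TPM at 72 h. The No Dox libraries, at 0.37 to 0.5 TPM, overlapped every Dox group. With effective lengths in the fit, the log2 fold change at 24 h was -0.12 and its adjusted p 0.875.

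FOSL1 moved the other way from FOS at 24 h. FOSL1 (ENSG00000175592, chr11:65892049-65900573, minus strand) was at 27.9, 26.1 and 27 CPM in No Dox libraries, 127, 113 and 107 CPM at 24 h, 43.1, 38.6 and 39.6 CPM at 48 h and 38.1, 48.2 and 44.2 CPM at 72 h. All Dox libraries lay above all No Dox libraries, the 24 h libraries stood far above the rest, and 48 and 72 h overlapped. The gene was 4.28-fold higher at 24 h than in No Dox cells (log2 fold change 2.1, SE 0.08, adjusted p = 1.3e-15). At 48 and 72 h it was 1.5-fold and 1.61-fold higher than in No Dox cells, differences that passed the adjusted p (2.89e-06 and 3.07e-07) but not the fold threshold. The step down was itself called, since FOSL1 was 2.86-fold lower at 48 h than at 24 h (log2 fold change -1.52, SE 0.08).

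FOSL2 (ENSG00000075426, chr2:28392448-28417317, plus strand) had the most counts of the family in every group and also the longest effective length. It had 389, 363 and 362 CPM in No Dox libraries, 169, 172 and 181 CPM at 24 h, 289, 309 and 333 CPM at 48 h and 360, 333 and 328 CPM at 72 h. FOSL2 thus dipped at 24 h and was close to its No Dox level by 72 h, where the ranges were nearly touching. It was 2.14-fold lower at 24 h (log2 fold change -1.1, SE 0.06, adjusted p = 1.62e-13). At 72 h the log2 fold change was -0.13 (SE 0.05, adjusted p = 0.0458). The recovery within Dox was 1.96-fold for 72 h over 24 h (log2 fold change 0.97, SE 0.06, adjusted p = 6.89e-12), just under the fold threshold.

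**Figure D1:**
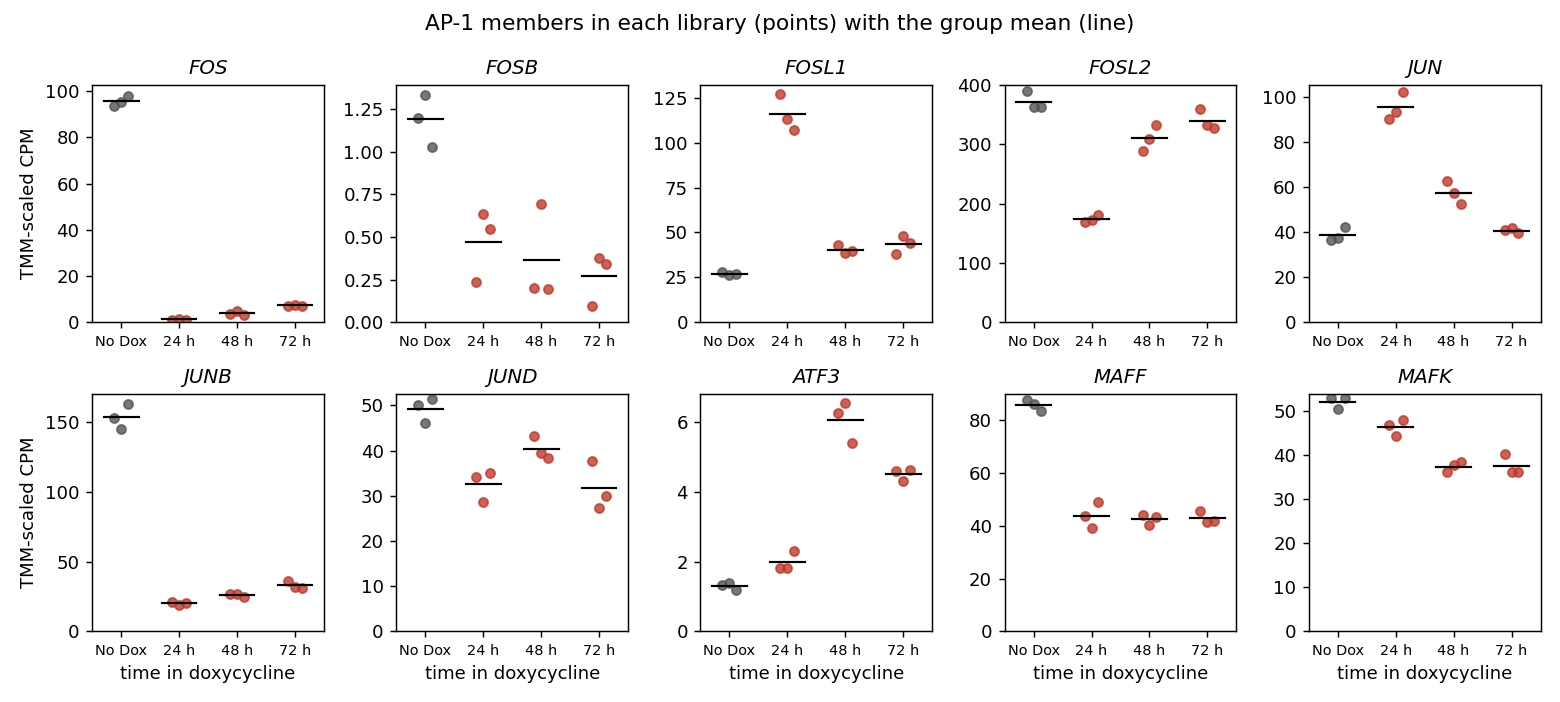
Each panel plots 1 AP-1 member, with TMM-scaled CPM on a linear axis from 0 and the groups No Dox, 24, 48 and 72 h in Dox along the bottom; points are libraries and lines are group means. FOS and JUNB stand high in No Dox libraries, FOSL1 and JUN peak at 24 h, ATF3 is highest at 48 h, and FOSL2 dips at 24 h.

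Among the JUN group, JUN was highest at 24 h, as FOSL1 was, and was back at its No Dox range by 72 h. JUN (ENSG00000177606, chr1:58776845-58784048, minus strand), a strong activator and the classic partner of FOS, was at 36.6, 37.5 and 42.1 CPM in No Dox libraries, 90.2, 93.3 and 102 CPM at 24 h, 62.5, 57.3 and 52.3 CPM at 48 h and 41.1, 41.7 and 39.5 CPM at 72 h. The 24 h and 48 h libraries were all above No Dox, whereas the 72 h libraries overlapped it. JUN was 2.45-fold higher at 24 h (log2 fold change 1.3, SE 0.07, adjusted p = 5.97e-13) and 1.48-fold higher at 48 h (log2 fold change 0.57, adjusted p = 5.18e-07, under the fold threshold). At 72 h its log2 fold change was 0.07 (SE 0.07, adjusted p = 0.416). JUN was called lower at 72 h than at 24 h, by 2.34-fold.

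JUNB (ENSG00000171223, chr19:12791486-12793315, plus strand), which is often described as a weaker activator that can restrain JUN, fell at every time. Its CPM were 153, 145 and 163 in No Dox libraries, 21.2, 18.7 and 20.5 at 24 h, 26.7, 26.5 and 24.7 at 48 h and 36.5, 31.9 and 31.4 at 72 h. The groups did not overlap at any time, and, as for FOS, the lowest level was at 24 h. JUNB was 7.65-fold lower at 24 h, 5.91-fold lower at 48 h and 4.63-fold lower at 72 h than in No Dox cells (log2 fold changes -2.94, -2.56 and -2.21, each with an SE of 0.07). The difference of 72 h from 24 h was 1.65-fold (log2 fold change 0.72, adjusted p = 6.34e-08), under the fold threshold.

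JUND (ENSG00000130522, chr19:18279694-18281622, minus strand), the JUN protein that many cells make steadily, was called at no time. It averaged 32.6 ± 3.48, 40.4 ± 2.6 and 31.7 ± 5.42 CPM at 24, 48 and 72 h, against 49.1 ± 2.76 CPM in No Dox cells (SD, n = 3 each). Its log2 fold changes of -0.6, -0.28 and -0.63 all passed the adjusted p (9.73e-06, 0.0105 and 5.44e-06) without reaching the fold threshold.

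ATF3 was scarce without Dox and changed late. ATF3 (ENSG00000162772, chr1:212565334-212620777, plus strand) was at 1.34, 1.39 and 1.18 CPM in No Dox libraries, 1.82, 1.81 and 2.3 CPM at 24 h, 6.26, 6.53 and 5.38 CPM at 48 h and 4.59, 4.32 and 4.61 CPM at 72 h. In CPM the groups did not overlap in any pair. In TPM, No Dox (1.01 to 2.06) overlapped 24 h (1.8 to 2.13), and 48 h (4.56 to 6.09) overlapped 72 h (4.17 to 6.29). With effective lengths in the edgeR fit, the log2 fold change of ATF3 at 24 h was 0.35 (adjusted p = 0.264). The gene was 4.67-fold higher at 48 h (log2 fold change 2.22, SE 0.19, adjusted p = 7.7e-10) and 3.47-fold higher at 72 h (log2 fold change 1.79, SE 0.19, adjusted p = 3.74e-08), but only 1.51-fold higher at 24 h, which was not called. The counts behind these values were 22 to 29 per No Dox library and 83 to 150 per library at 48 h. At 48 h ATF3 was also 3.09-fold higher than at 24 h (log2 fold change 1.63, SE 0.17, adjusted p = 2.83e-07).

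Of the small MAF genes, MAFF stood lower at every time in Dox and MAFK moved less. MAFF (ENSG00000185022, chr22:38200767-38216507, plus strand) averaged 43.8 ± 5.05, 42.5 ± 2 and 42.8 ± 2.26 CPM at 24, 48 and 72 h, against 85.5 ± 2.01 CPM in No Dox cells. It thus stood at about the same lower level throughout, and its log2 fold changes of -0.968, -1.01 and -0.998 (SE 0.07 each) straddled the fold threshold, so that only 48 h was called. That call was lost without Dox 48 h replicate 2 (log2 fold change -0.97) or without No Dox replicate 1 (-0.99). MAFK (ENSG00000198517, chr7:1530702-1543043, plus strand) averaged 46.4 ± 1.9, 37.4 ± 1.08 and 37.6 ± 2.35 CPM, against 52.2 ± 1.46 CPM in No Dox cells, and was called at no time (log2 fold changes -0.17, -0.48 and -0.48).

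**Figure D2:**
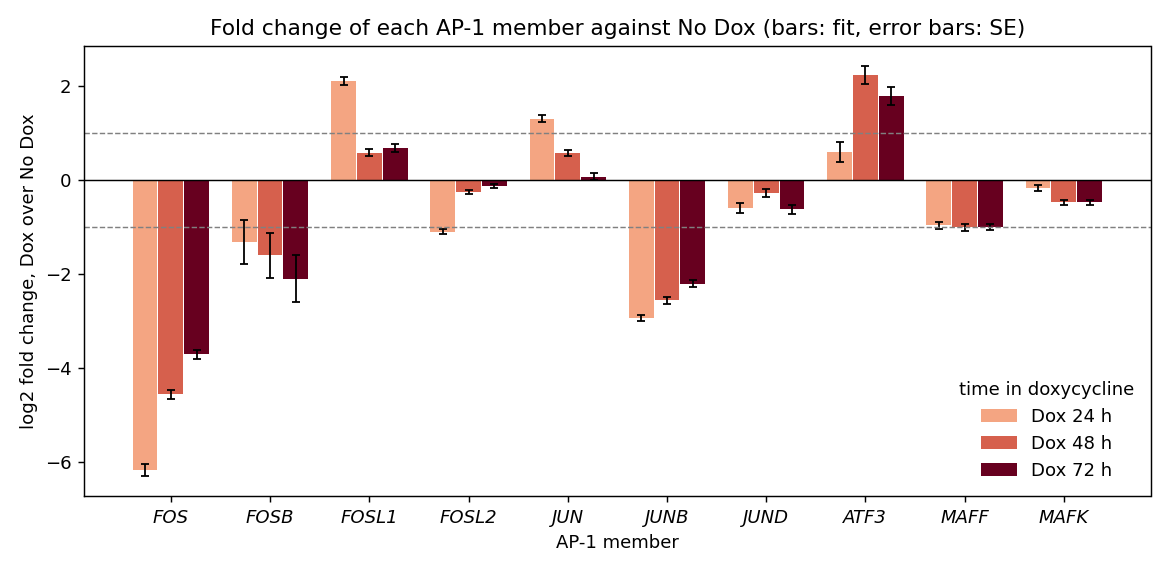
Log2 fold change of each member in Dox over No Dox at 24, 48 and 72 h (bars, with SE from the fit as error bars), with dashed lines at the fold threshold of 1. FOS reaches -6.17 at 24 h, FOSL1 2.1 at 24 h and ATF3 2.22 at 48 h, and the MAFF bars end at the lower line.

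Counted together, 2 of 10 members were called higher at 24 h (FOSL1 and JUN) and 4 lower (FOS, FOSB, FOSL2 and JUNB). Over all genes tested, 12% were called higher and 17.7% lower at that time. At 48 h, 1 member was called higher (ATF3) and 4 lower (FOS, FOSB, JUNB and MAFF), where 10.6% of all genes were called higher and 14.4% lower. At 72 h, 1 was called higher (ATF3) and 3 lower (FOS, FOSB and JUNB), where 10.2% of all genes were called higher and 12.3% lower. The median log2 fold change of the members was -0.78, -0.38 and -0.55 at 24, 48 and 72 h, beside -0.03, -0.01 and -0.02 over all genes tested. These comparisons share the same No Dox libraries. With the 3 times tested together, 8 of 10 members were called, the exceptions being JUND and MAFK, and 35.9% of all genes were called.

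Changes within Dox were fewer. Between 24 and 48 h, ATF3 and FOS were called higher and FOSL1 lower at 48 h, where 3.08% of all genes were called higher and 1.44% lower. Between 48 and 72 h, 0 members were called by edgeR and 0 by DESeq2, and 3.24% of all genes were called by edgeR. For 6 members the unadjusted p was under 0.05, and for 5 the adjusted p was too. FOS (log2 fold change 0.86, adjusted p = 3.09e-05) and JUNB (0.35, adjusted p = 0.000792) were higher at 72 h, and JUN (-0.5, adjusted p = 1.69e-05), JUND (-0.35, adjusted p = 0.00707) and ATF3 (-0.43, adjusted p = 0.035) were lower. The FOS difference was called when Dox 48 h replicate 2, the highest of its group, was left out (log2 fold change 1.07). The ATF3 difference was near 0 with effective lengths in the fit. Between 24 and 72 h, ATF3 and FOS were called higher and FOSL1 and JUN lower at 72 h, where 8.28% of all genes were called higher and 3.99% lower.

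Levels were compared between members in TPM, since CPM favours long transcripts. In No Dox cells JUNB was first with 118 ± 6.72 TPM, followed by FOS (72 ± 0.542 TPM) and FOSL2 (70.1 ± 2.9 TPM), whose ranges overlapped, and then JUND, MAFF, FOSL1, MAFK, JUN, ATF3 and FOSB without overlap between neighbours. At 24 h FOSL1 was first with 113 ± 8.73 TPM, and JUND, JUN and FOSL2 followed with means of 37.6, 35.7 and 33.8 TPM, JUND overlapping JUN and JUN overlapping FOSL2. FOS had dropped to the ninth place with 0.71 to 1.74 TPM, above FOSB only. At 48 h FOSL2 led with 60.7 ± 5.65 TPM, ahead of JUND (44.3 ± 2 TPM) and FOSL1 (38.9 ± 1.08 TPM) without overlap. At 72 h FOSL2 led again with 67.2 ± 5.42 TPM, FOSL1 and JUND overlapped behind it, and FOS (5.63 ± 0.481 TPM) and ATF3 (5.27 ± 1.06 TPM) overlapped near the bottom.

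**Figure D3:**
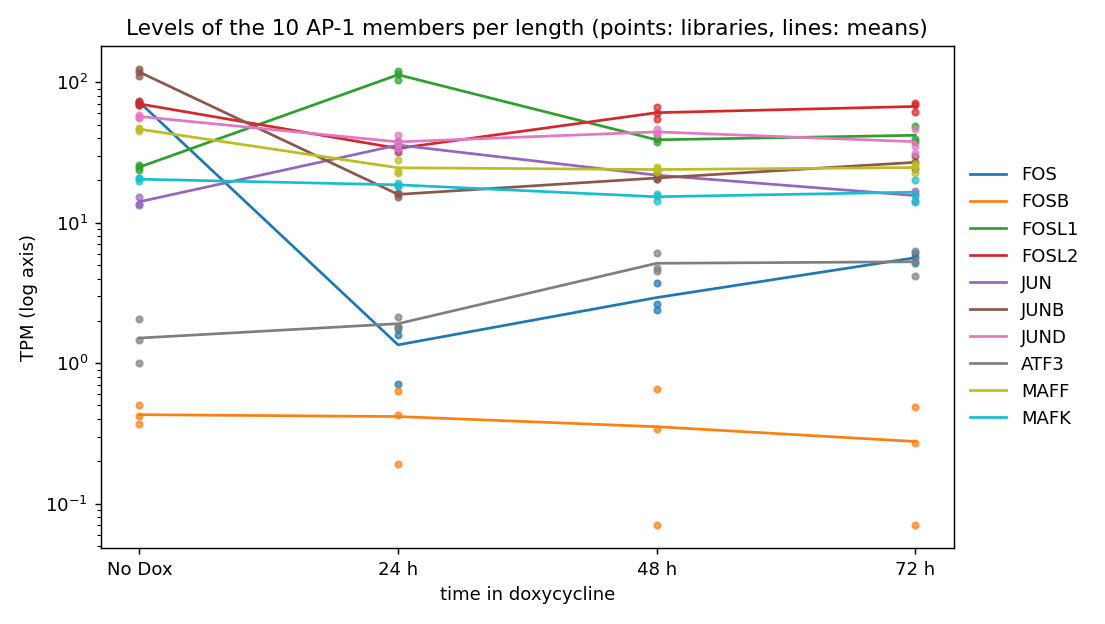
TPM of the 10 members on a log axis for No Dox and for 24, 48 and 72 h in Dox, with points for libraries and lines for means. JUNB leads in No Dox cells, FOSL1 at 24 h and FOSL2 at 48 and 72 h, while FOSB stays lowest in mean TPM.

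The make-up of the FOS group changed more than its sum. The 4 FOS-group genes summed to 148 ± 7.12, 103 ± 5.43 and 115 ± 8.62 TPM at 24, 48 and 72 h, against 167 ± 4.04 TPM in No Dox cells. FOS made up 42, 43.5 and 43.6% of that sum in the No Dox libraries, 0.463, 1.05 and 1.24% at 24 h, 2.72, 3.63 and 2.21% at 48 h and 4.51, 4.57 and 5.71% at 72 h. FOSL1 made up 75.9 ± 2.45%, 37.9 ± 2.49% and 36.3 ± 3.37% at 24, 48 and 72 h, against 14.8 ± 0.293% in No Dox cells. FOSL2 held 22.9 ± 1.94% at 24 h, and 58.9 ± 2.38% and 58.5 ± 3.71% at 48 and 72 h, against 41.9 ± 0.787% in No Dox cells. The largest share thus lay with FOS and FOSL2 in No Dox cells, with FOSL1 at 24 h and with FOSL2 later. FOSB held 0.0614 to 0.632% in all 12 libraries.

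In the JUN group the sum fell as well as the make-up changing. JUN, JUNB and JUND together summed to 89.1 ± 6.3, 87 ± 3.02 and 80.3 ± 10.6 TPM at 24, 48 and 72 h, against 189 ± 7.78 TPM in No Dox cells. JUNB held 17.8 ± 1.2%, 24 ± 0.975% and 33.6 ± 1.98% of it at these times, against 62.3 ± 1.02% in No Dox cells. JUN held 40.1 ± 1.94%, 25.1 ± 0.768% and 19.7 ± 2.54%, against 7.46 ± 0.364%. JUND held 42.1 ± 1.93%, 51 ± 1.22% and 46.7 ± 4.46%, against 30.2 ± 1.24%, and had the largest mean share at all 3 times in Dox, overlapping JUN at 24 h, although its own level was lower than in No Dox cells. For each of these shares and sums other than FOSB's, no Dox library overlapped a No Dox library. With 3 libraries against 3, the two-sided exact permutation test gave its smallest possible p of 0.1 for each of them, 0.111 after adjustment over 30 such tests.

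**Figure D4:**
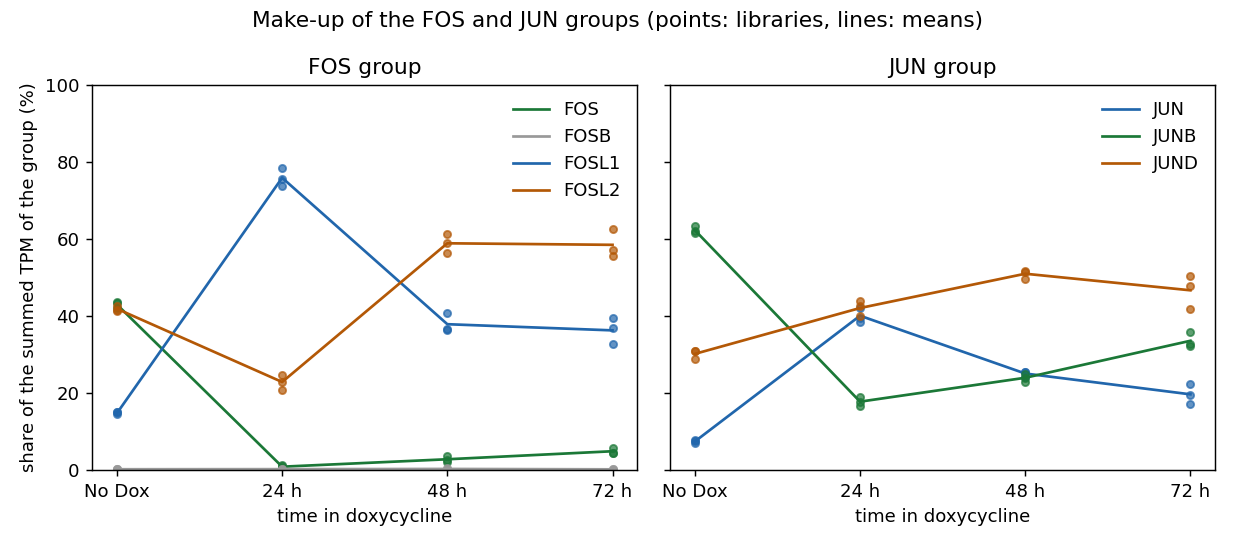
Share of the summed TPM of the FOS group (left) and of the JUN group (right) held by each member, in percent, for No Dox and for 24, 48 and 72 h in Dox; points are libraries and lines join means. FOS holds 43% in No Dox cells and 0.919% at 24 h, FOSL1 75.9% at 24 h, and JUNB 62.3% in No Dox cells and 17.8% at 24 h.

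Transcripts of single members could not be separated with gene tables, but the effective length bears on which were made. Its mean moved little for FOSL1, FOSL2, JUN, JUNB, MAFF and MAFK, among which the largest move was in MAFK at 72 h, where it decreased by 5.23% with 1 library at 2526 nt. It varied more between libraries for the genes with few counts, at 845 to 1884 nt for FOS at 24 h and 678 to 1587 nt for ATF3 in No Dox libraries. The effective length of JUND averaged 1136 ± 22 nt at 48 h, against 1027 ± 44.5 nt in No Dox cells, without overlap. The smallest p that the two-sided exact permutation test allows, 0.1, was reached for FOSB at 24 and 72 h, FOSL1 at 24 h, and FOS, FOSL2 and JUND at 48 h. None of the 30 tests had an adjusted p below 0.5. No member shared reads with another gene, since the SD that RSEM gives for shared reads was 0 for all 10 in every library.

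Other genes with courses like those of the members were found by the distance between the 3 log2 fold changes against No Dox (24, 48 and 72 h), over the 4 group means and 10325 protein-coding genes with a mean of at least 5 CPM. The nearest to FOS were SCNN1B (distance 0.25), a subunit of the epithelial sodium channel, and PDK4 (0.6), a kinase that inhibits pyruvate dehydrogenase. SCNN1B averaged 1.73, 5.34 and 8.57 CPM at 24, 48 and 72 h, against 112 CPM in No Dox cells. SCNN1B and PDK4 were thus the nearest examples of a deep fall with a partial return. The nearest to FOSL1 were TNFRSF12A (0.5), a receptor of the TNF family, and ETS1 (0.53), a transcription factor. TNFRSF12A averaged 301, 166 and 123 CPM at 24, 48 and 72 h, against 83.6 CPM in No Dox cells. The nearest to JUN were NOP56 (0.09), a protein of ribosomal RNA processing, and PDLIM7 (0.11), and the nearest to ATF3 were STC2 (0.25), a secreted glycoprotein, and RIMKLB (0.26). Within 0.5 lay 1 gene each for FOS and FOSL1, 3 for ATF3, 18 for JUNB and 25 for FOSB. The counts were 224 for JUN, 287 for FOSL2, 455 for MAFF, 1119 for JUND and 1467 for MAFK. The part of the size of a member's change in these counts was not tested.

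The wider bZIP class held 30 further genes, of which 26 were tested. At 24, 48 and 72 h, 5, 3 and 3 of them were called higher and 7, 5 and 4 lower, beside 12, 10.6 and 10.2% of all genes called higher and 17.7, 14.4 and 12.3% called lower. Their median log2 fold change was -0.2, -0.23 and -0.45, beside -0.03, -0.01 and -0.02 over all genes tested. The difference of this list, and of those that follow, from all genes was not tested. CEBPD, a factor of acute-phase and differentiation genes, averaged 35.8 ± 6.5 CPM at 24 h, against 224 ± 7.55 CPM in No Dox cells. BACH2, a repressor that pairs with small MAF proteins, averaged 1.4 ± 0.252 CPM at 24 h, against 8.95 ± 0.887 CPM, and was called lower at all 3 times. NFE2L3, an activator that also pairs with small MAF proteins, averaged 13.5 ± 1.15 CPM at 24 h, against 3.1 ± 0.176 CPM, and was called higher at all 3 times. JDP2, which pairs with JUN proteins and represses, averaged 48 ± 3.03 CPM at 48 h, against 12 ± 0.572 CPM (log2 fold change 2, SE 0.08, adjusted p = 1.82e-15).

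Genes upstream of AP-1 were looked at next. Of 22 kinases and turnover factors that act on AP-1 proteins, 21 were tested, of which at most 1 was called higher and at most 2 lower at any time. Over all genes tested, 12, 10.6 and 10.2% were called higher and 17.7, 14.4 and 12.3% lower at 24, 48 and 72 h. The median log2 fold change of this list was 0.02, -0.11 and -0.07 at these times. MAP3K1, a kinase above JNK, averaged 51.1 ± 6.46 and 60.9 ± 5.72 CPM at 48 and 72 h, against 19.3 ± 1.92 CPM in No Dox cells. MAP2K5, the kinase of ERK5, averaged 9.92 ± 1.58 CPM at 24 h, against 22.4 ± 0.571 CPM in No Dox cells. A list of 6 genes held SRF, the ternary complex factors ELK1, ELK3 and ELK4, and the SRF partners MRTFA and MRTFB. SRF and ternary complex factors act on the serum response element of FOS. Of the 6, ELK3 alone was called, and at 48 h only (46.7 ± 2.14 CPM, against 104 ± 2.79 CPM in No Dox cells). It was called lower, as were 14.4% of all genes at that time.

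Other immediate-early genes were called in both directions, and genes in general were also called lower more often than higher. Of 20 such genes, 18 were tested, and 2, 3 and 3 were called higher and 8, 8 and 7 lower at 24, 48 and 72 h, beside the shares of 12, 10.6 and 10.2% higher and 17.7, 14.4 and 12.3% lower over all genes. Their median log2 fold change was -0.96, -0.87 and -0.35. EGR1, a zinc finger factor that the same signals induce with FOS, averaged 15.9 ± 1.98, 18.9 ± 2.04 and 50.9 ± 5.6 CPM at 24, 48 and 72 h, against 242 ± 9.79 CPM in No Dox cells. Its mean was thus lowest at 24 h, as those of FOS and JUNB were. NR4A1, an orphan nuclear receptor, averaged 1.53 ± 0.127 CPM at 24 h, against 6.91 ± 0.729 CPM in No Dox cells. ZFP36, which speeds the decay of mRNAs with AU-rich elements, averaged 22.1 ± 2.37 CPM at 24 h, against 87.4 ± 0.905 CPM. KLF10 was called lower at all 3 times. PTGS2, the inducible prostaglandin synthase, was among the few called higher, with 19.2 ± 2.25 CPM at 72 h against 0.963 ± 0.204 CPM in No Dox cells (log2 fold change 4.32, SE 0.17, adjusted p = 2.89e-15).

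Genes known as AP-1 targets were called in both directions. Of 20 listed, 12 were tested, and 4, 5 and 5 were called higher and 2, 4 and 4 lower at 24, 48 and 72 h, where 12, 10.6 and 10.2% of all genes were called higher and 17.7, 14.4 and 12.3% lower. Their median log2 fold change was 0.46, 0.33 and 0.01. CCND1, which encodes cyclin D1, averaged 722 ± 14.3 CPM at 24 h, against 124 ± 2.78 CPM in No Dox cells. PLAUR, the receptor of urokinase, averaged 27.2 ± 0.794 CPM at 72 h, against 5.48 ± 0.475 CPM. CXCL8, a chemokine, averaged 1.91 ± 0.177, 0.193 ± 0.106 and 0.351 ± 0.13 CPM at 24, 48 and 72 h, against 83.8 ± 2.49 CPM. HBEGF, a growth factor of the EGF family, averaged 3.29 ± 0.668 CPM at 72 h, against 22.1 ± 0.999 CPM. CCND1 was also called lower at 72 h than at 24 h, and no target was called higher within Dox.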

How the data were processed

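Per the labels, total RNA of MCF10A cells was the source of the 12 libraries. The paper states that polyA RNA was selected from it before sequencing. The authors used STAR for alignment to GRCh38 and RSEM for gene levels, on GENCODE version 22, with tool versions not given in the sources used here. The deposited gene tables hold RSEM expected counts (estimated counts, in which a read that matches several genes is shared), deposited TPM scaled by the authors per length and library, and effective lengths. FPKM was not used here. Names, positions and exons came from GENCODE version 44 by stable identifier.

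Expected counts were rounded, filtered with filterByExpr, scaled with TMM and fitted for all 12 libraries in 1 quasi-likelihood model (R 4.3.3, edgeR 4.0.16, limma 3.58.1), where the biological coefficient of variation was 5.7%. SEs are those implied by the F statistic. TPM shares and effective lengths were compared by two-sided exact permutation tests. The code was tested on simulated data. Every pair of replicates differed by more than sampling noise. Same-numbered libraries had correlations of -0.205 to 0.32 between deviations from group means, with 3 of 18 pairs over 0.1, so numbers were not taken as pairs. All members are named, with up to 3 called genes per other list and comparison (largest fold change, at least 5 CPM in the higher group, no overlap between replicates), the 2 nearest genes of a member, and WWTR1. A few genes that this rule takes are not reported here. The members and the 9 lists of other genes and markers were chosen with earlier results of these data known. Alternatives were DESeq2 1.42.0, effective lengths, other scaling and filters, glmTreat, no fold threshold, the compared groups alone, the replicate number as a block, and fits without each library in turn.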

Additional observations from a re-analysis of the deposited data

Results flagged for a closer look

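For 4 members the difference of 72 h from 24 h was called in edgeR's quasi-likelihood fit, past both the adjusted p and the fold threshold. FOS (log2 fold change 2.47, adjusted p = 7.21e-11) and ATF3 (1.2, adjusted p = 6.87e-06) were higher at 72 h than at 24 h. FOSL1 (-1.42, adjusted p = 2.45e-12) and JUN (-1.23, adjusted p = 7.08e-12) were lower. Each difference had the same direction in all 3 libraries of a time against all 3 of the other. Over all genes tested, 1227 were called higher and 592 lower in that comparison. With glmTreat, which tests the fold threshold itself, ATF3 was not called (adjusted p = 0.561). In the quasi-likelihood test, 3 more members passed the adjusted p under the fold threshold. They were FOSL2 (log2 fold change 0.97, adjusted p = 6.89e-12), JUNB (0.72, adjusted p = 6.34e-08) and MAFK (-0.3, adjusted p = 0.000246).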

How the results depend on the processing

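The calls of FOS, FOSL1, JUN, JUNB and ATF3 against No Dox held under every alternative run. Without a fold threshold, 10, 10 and 9 members were called against No Dox at 24, 48 and 72 h (in place of 6, 5 and 4), 8 for 48 h against 24 h (in place of 3), 5 for 72 h against 48 h (in place of 0) and 7 for 72 h against 24 h (in place of 4). The counts of all genes were then 11142, 10646, 10252, 5414, 5742 and 8992 (in place of 4391, 3718, 3333, 669, 480 and 1819), and 12786 over the time course (in place of 5319). With glmTreat, 4 members were called at 24 h, FOSB (adjusted p = 0.358) and FOSL2 (adjusted p = 0.0663) being lost, and 3 at 48 h, FOSB and MAFF being lost. The counts of all genes were then 3041 at 24 h, 2464 at 48 h, 2155 at 72 h, 177 for 48 h against 24 h, 26 for 72 h against 48 h and 655 for 72 h against 24 h. The stricter filter left 268 genes for 72 h against 48 h and did not test FOSB. Leaving out 1 library gave 5 to 7, 4 to 5 and 4 to 5 members at 24, 48 and 72 h, 3 in each fit for 48 h against 24 h, 0 to 1 for 72 h against 48 h (FOS, without Dox 48 h replicate 2), 4 in each fit for 72 h against 24 h and 7 to 8 over the time course. The counts of all genes in the same order were 4413 to 4564, 3722 to 3860, 3321 to 3461, 610 to 687, 438 to 505, 1723 to 1890 and 5283 to 5518. With the replicate number as a block, MAFF was also called at 72 h (log2 fold change -1.0, adjusted p = 2.04e-11), 5 members in place of 4, and no other member's call changed.

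FOSB was not called at any time with effective lengths, with log2 fold changes of -0.12, -0.53 and -0.9 in edgeR and -0.12, -0.45 and -0.85 in DESeq2, nor at 24 h without Dox 24 h replicate 1 (-0.97). MAFF at 48 h was also not called with no filter on low counts (-0.99), in the compared groups alone (-1.0), without No Dox replicate 1 (-0.99) or without Dox 48 h replicate 2 (-0.97). MAFF at 72 h was called with effective lengths (-1.01 in edgeR, -1.03 in DESeq2), upper-quartile factors (-1.03) and the stricter filter (-1.03). It was also called there without No Dox replicate 3 (-1.01) or Dox 72 h replicate 1 (-1.04). MAFF at 24 h was called with upper-quartile factors (-1.02), the stricter filter (-1.02) and without Dox 24 h replicate 3 (-1.04). ATF3 at 72 h against 48 h turned from -0.43 to 0.01 in DESeq2 and 0.0034 in edgeR with effective lengths. The FOSB share of FOS-group TPM, Dox minus No Dox, was 0.0255, 0.082 and -0.0207 percentage points at 24, 48 and 72 h. At 24 h it turned to -0.291 with a fixed effective length, -0.0768 from counts without length and lay between -0.0417 (without Dox 24 h replicate 2) and 0.105 with a library left out. At 48 h it turned to -0.269 and -0.137 in the same settings and lay between -0.0645 (without Dox 48 h replicate 2) and 0.216. At 72 h it lay between -0.1 and 0.0669 (without Dox 72 h replicate 1), and was 0.0029 without No Dox replicate 2. The cause of these turns was not tested. For 10 differences within Dox that did not pass the adjusted p, the sign changed in 13 of 225 fits, and none was called. Few counts limit FOSB, ATF3 and the level of FOS at 24 h, and 3 libraries a group keep the permutation tests at 0.1 or above.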
